A study of Homo sapiens with 12 samples.

Results

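The codons for glutamate (GAA and GAG), glutamine (CAA and CAG) and lysine (AAA and AAG) were examined in ribosome and disome profiling of human embryonic kidney cells. They were taken as all rows of these 3 amino acids, which gave 6 of the 61 sense codons measured and 3 of the 13 pairs of synonymous codons that differ only by A or G as the last base. Wild-type (WT) cells were compared with cells in which THUMPD1 had been deleted by CRISPR-Cas9 (KO). The labels name the line HEK293 and the study's methods name it HEK-293T, a transformed line of embryonic kidney origin, and the labels name no further treatment of either genotype. The KO cells were isolated by sorting single cells, and how many clones the libraries come from is not given in the sources used here. Monosome footprints, the mRNA fragments protected by single ribosomes, came from 4 WT and 4 KO libraries, and disome footprints, protected by a pair of stacked ribosomes, came from 2 WT and 2 KO libraries.

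A tRNA reads the last base of a codon with the first base of its anticodon, the wobble position. In the tRNAs that read GAA, CAA and AAA this base is a uridine that carries a side chain begun by the Elongator complex and a sulfur added by the CTU1 and CTU2 enzymes, and in yeast and worms the loss of these groups is known to slow decoding of some of these codons. The matching codons ending in G are read by tRNAs with a wobble cytidine and, to a lesser degree, by the same uridine tRNAs. THUMPD1 is the adaptor with which the enzyme NAT10 acetylates a cytidine of tRNAs for Leu and Ser, so none of the tRNAs for Glu, Gln or Lys is a known target, and a comparison of the 6 codons between genotypes asks whether occupancy changed where acetylation is not placed. Neither thiolation nor tRNA level was measured in these files.

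To show the wobble base of the tRNAs that read the codons ending in A and, for Gln and Lys, how closely they resemble the tRNAs that read the codons ending in G, the gene numbered 1-1 of each of 5 anticodons is given below. RefSeq lists 7 genes for the Glu anticodon UUC and 8 for CUC, 6 for the Gln anticodon UUG and 13 for CUG, and 13 for the Lys anticodon UUU and 14 for CUU. Each line holds the gene from 5′ to 3′ on its transcribed strand, in the hg38 build at RefSeq coordinates, with the anticodon in capitals starting at base 34. The genes lie at chr2:130337128-130337199 (minus strand, reads GAA), chr17:49192528-49192599 (plus, CAA), chr6:18836171-18836242 (plus, CAG), chr16:73478317-73478389 (minus, AAA) and chr14:58239895-58239967 (minus, AAG), in the order printed.
TRE-TTC1-1: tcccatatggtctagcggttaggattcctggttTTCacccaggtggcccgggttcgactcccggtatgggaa
TRQ-TTG1-1: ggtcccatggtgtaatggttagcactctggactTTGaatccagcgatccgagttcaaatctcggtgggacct
TRQ-CTG1-1: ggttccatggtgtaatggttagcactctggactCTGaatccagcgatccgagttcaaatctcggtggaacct
TRK-TTT1-1: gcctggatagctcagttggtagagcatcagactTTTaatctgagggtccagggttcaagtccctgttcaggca
TRK-CTT1-1: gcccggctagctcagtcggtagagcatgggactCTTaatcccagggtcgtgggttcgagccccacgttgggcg
The T that opens the capitals of TRE-TTC1-1, TRQ-TTG1-1 and TRK-TTT1-1 is the uridine that is thiolated in the tRNA.

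Each deposited value was a relative codon occupancy, a ratio without unit that averaged between 0.981 and 1.00 over the 61 codons of a monosome library and between 0.949 and 0.962 in a disome library. Occupancies compare codons within a library and give no amount of translation. The tables hold no counts, so depth is unknown, and they hold no gene, so loss of THUMPD1 could not be checked in them. That the values refer to the A site, where a tRNA enters the ribosome, and in disomes to that site in the leading ribosome, rests on the study's description and is not stated in the tables. The study calls the libraries biological replicates and the labels do not, so p-values measure the spread between these libraries. WT and KO monosome libraries with a shared replicate number deviated from their genotype means in similar ways. Correlations of these deviations across codons ran from 0.534 for replicate 3 to 0.872 for replicate 2. WT replicate 3 was the exception, since it correlated best with a KO library of another number. WT replicate 2 stood apart from the other libraries. In WT replicate 2 the correlation of log2 occupancy with the other libraries had a median of 0.818 across codons, and its log2 occupancies spread with an SD of 0.413, against 0.258 to 0.395 in the others. KO replicate 2 was next in spread, at 0.395, with a median correlation of 0.878, which was not the lowest of the rest. Both held the extreme values of the glutamate and glutamine codons in their genotype, so the monosome differences and changes below are also given without replicate 2 of both genotypes, a choice made after the data were seen.

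GAA was the most occupied of all 61 codons in each of the 12 libraries. In monosomes its occupancy was 2.40, 2.57, 2.19 and 2.30 in WT replicates 1 to 4 and 2.30, 2.33, 2.12 and 2.14 in the same KO replicates. The second codon for glutamate was well below it but above most other codons. GAG gave 1.36, 1.52, 1.19 and 1.19 in WT and 1.30, 1.42, 1.16 and 1.14 in KO, and its mean ranked 7 of 61 in WT and 9 in KO. Replicate 2 was the highest library of both genotypes for both codons.

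The lysine codons lay near the library baseline, with the codon ending in A above 1 and the codon ending in G below 1 in every monosome library. AAA gave 1.09, 1.05, 1.08 and 1.14 in WT and 1.08, 1.07, 1.11 and 1.12 in KO. AAG gave 0.895, 0.847, 0.943 and 0.916 in WT and 0.899, 0.870, 0.908 and 0.901 in KO. Both were the steadiest of the 6 codons, with SDs of no more than 0.0408 (n = 4 per genotype).

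The glutamine codons were the least occupied of the 6. CAA gave 0.809, 0.585, 0.879 and 0.866 in WT and 0.771, 0.629, 0.899 and 0.831 in KO. CAG gave 0.723, 0.614, 0.915 and 0.817 in WT and 0.703, 0.674, 0.832 and 0.917 in KO. Replicate 2 was the lowest library of both genotypes for both codons, the opposite of its place for glutamate.

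**Figure D1:**
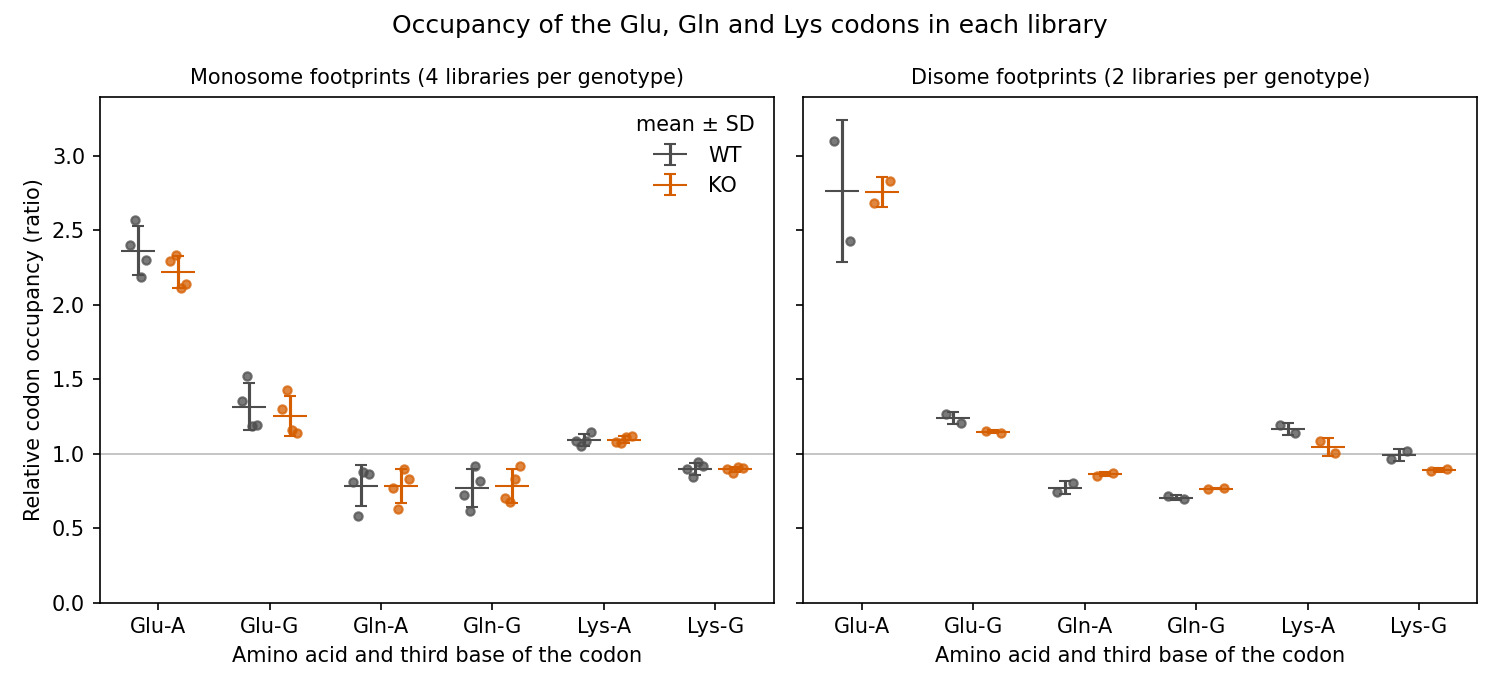
Relative codon occupancy (y axis, ratio) of the 6 codons, labelled by amino acid and last base, in monosome libraries (left) and disome libraries (right); dots are libraries, WT in grey and KO in orange, with the mean and SD, and the line marks 1. Glu-A (GAA) lies between 2.12 and 2.57 in monosomes and between 2.43 and 3.10 in disomes, above the other 5 codons in every library.

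In both genotypes and both kinds of footprint the means fell from glutamate through lysine to glutamine, with the codon ending in A above the codon ending in G for each. Monosome means ± SD (n = 4) ran from 2.36 ± 0.164 for GAA through 1.31 ± 0.159, 1.09 ± 0.0380, 0.900 ± 0.0408 and 0.784 ± 0.137 to 0.768 ± 0.129 for CAG in WT. Adjacent codons did not overlap down to AAG. The ranges of AAG and CAA overlapped, although AAG was higher in 4 of 4 libraries of each genotype, and those of CAA and CAG also overlapped, with CAA higher in 2 of 4 WT and 2 of 4 KO libraries.

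Disome occupancies kept this order. GAA gave 3.10 and 2.43 in WT and 2.69 and 2.83 in KO. GAG gave 1.27 and 1.21 in WT against 1.15 and 1.14 in KO. The WT libraries thus differed more for GAA than for any of the other 5 codons. AAA gave 1.20 and 1.14 in WT and 1.09 and 1.00 in KO, and AAG gave 0.962 and 1.02 in WT and 0.883 and 0.899 in KO. CAA gave 0.744 and 0.802 in WT and 0.853 and 0.874 in KO, and CAG gave 0.716 and 0.694 in WT and 0.761 and 0.768 in KO. No neighbouring codons overlapped in either genotype, with 2 libraries in each.

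To compare the codon read by the thiolated wobble uridine with its G-ending synonym, the log2 occupancy of the codon ending in G was subtracted from that of the codon ending in A in each library. This A minus G difference cancels any scale factor of the library. For glutamate in monosomes it was 0.83, 0.76, 0.88 and 0.95 in WT and 0.82, 0.71, 0.87 and 0.91 in KO. GAA was thus 1.80-fold as occupied as GAG in WT and 1.78-fold in KO, and higher in 4 of 4 libraries of both. With limma fitted over the 13 pairs and adjusted over them, the difference from 0 had an adjusted p of 6.993e-07 in WT and 8.652e-07 in KO, and it was the highest of the 13 pairs in both. Such a difference was common, since 7 of 13 pairs (53.8%) passed in WT and 9 of 13 (69.2%) in KO, of which 2 and 3 had the codon ending in G higher.

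The lysine difference was smaller and also passed. It was 0.28, 0.31, 0.20 and 0.32 in WT and 0.26, 0.30, 0.29 and 0.31 in KO. AAA was 1.21-fold as occupied as AAG in WT (limma, adjusted p = 0.0001457) and 1.22-fold in KO (adjusted p = 7.942e-05), higher in 4 of 4 libraries of both. It ranked 3 of 13 in WT and 4 of 13 in KO.

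For glutamine no A minus G difference was detectable in monosomes. The values were 0.16, −0.07, −0.06 and 0.08 in WT and 0.13, −0.10, 0.11 and −0.14 in KO, with CAA higher in 2 of 4 libraries of each genotype. The mean was 0.028 in WT, with a 95% interval from −0.11 to 0.17 (limma, adjusted p = 0.6595). In KO it was 0.0017, from −0.14 to 0.14 (adjusted p = 0.9783). The 3 pairs thus ran from near 0 to the highest of all 13.

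The order of the 3 pairs was also seen without replicate 2. Without replicate 2 of both genotypes the mean differences were 0.88 for glutamate, 0.27 for lysine and 0.06 for glutamine in WT, and 0.87, 0.29 and 0.04 in KO.

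**Figure D2:**
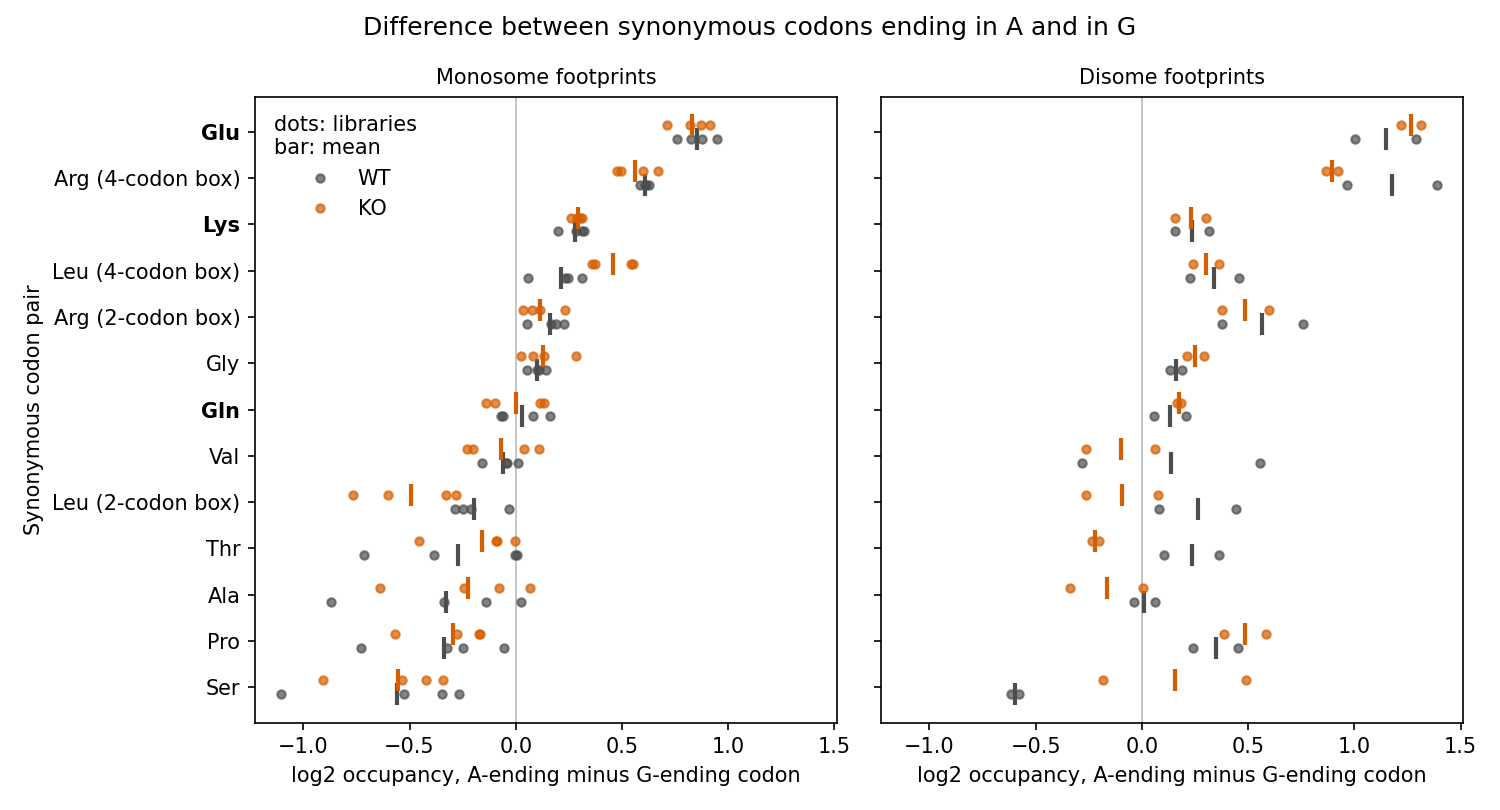
Difference in log2 occupancy between the codon ending in A and the codon ending in G (x axis) for the 13 synonymous pairs (y axis, Glu, Gln and Lys in bold), in monosomes (left) and disomes (right); dots are libraries and bars are means, WT in grey and KO in orange. In monosomes Glu lies furthest right, at 0.85 in WT and 0.83 in KO, Lys lies near 0.28 and Gln lies on both sides of 0.

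Pairs whose A-ending codon is read by a tRNA with the same side chain but without full thiolation, Arg AGA/AGG and Gly GGA/GGG, served as comparators. In monosomes AGA exceeded AGG by 0.16 in WT and 0.11 in KO on the log2 scale (limma, adjusted p = 0.01575 and 0.04897). GGA exceeded GGG by 0.10 in WT and 0.13 in KO (adjusted p = 0.07068 and 0.03771). These calls were less stable than those of glutamate and lysine. The AGA/AGG difference was called in 11 of 13 alternatives in WT, not without WT replicate 1 or WT replicate 2, and in 4 of 13 in KO. It was lost in KO without any 1 library except WT replicate 3 or KO replicate 4. The GGA/GGG difference was called in 3 of 13 in WT and 8 of 13 in KO, where it was lost without WT replicate 1, 2 or 4 or KO replicate 1 or 3. The glutamate and lysine differences were called in 13 of 13 in both genotypes. This was not particular to them. Arg CGA/CGG and, with the codon ending in G higher, Ser UCA/UCG were also called in 13 of 13 in both, and Leu CUA/CUG in KO. By their means both comparators lay between lysine and glutamine in monosomes, an order that was not tested. Their libraries overlapped those of glutamine in both genotypes. They also overlapped those of lysine for AGA/AGG in WT and for GGA/GGG in KO. Arg CGA/CGG lay above lysine, at 0.61 in WT and 0.56 in KO, and so did Leu CUA/CUG in KO, at 0.46. The lowest of the 13 pairs was Ser UCA/UCG, at −0.56 in WT and −0.55 in KO.

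In disomes the glutamate difference was 1.29 and 1.00 in WT and 1.22 and 1.31 in KO, so GAA was 2.22-fold and 2.40-fold as occupied as GAG. With limma over the 13 pairs the adjusted p was 3.338e-07 in WT and 1.078e-07 in KO. In this fit all pairs shared a single estimate of the spread, so the test leans on the other pairs. The disome pairs that passed numbered 4 of 13 (30.8%) in WT and 4 of 13 (30.8%) in KO. Glutamate ranked 2 of 13 in WT, after Arg CGA/CGG at 1.18, and 1 in KO.

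The lysine and glutamine differences did not pass in disomes. Lysine gave 0.31 and 0.16 in WT and 0.30 and 0.16 in KO (limma, adjusted p = 0.1949 and 0.263). Glutamine gave 0.06 and 0.21 in WT and 0.16 and 0.19 in KO (adjusted p = 0.4228 and 0.3699). All of these libraries had the codon ending in A higher. With limma's trend option and a robust prior the lysine difference passed, with an adjusted p of 0.0249 in WT and 0.03 in KO. More pairs passed in KO in that setting than in the main one, since 5 of 13 pairs passed in WT and 7 of 13 in KO, with Gly GGA/GGG among those in KO. Arg AGA/AGG, the comparator without full thiolation, passed in disomes with differences of 0.57 in WT and 0.49 in KO (adjusted p = 0.003063 and 0.01196). Gly GGA/GGG gave 0.16 and 0.25 and did not pass in the main setting (adjusted p = 0.3916 and 0.2396). The Arg call was lost in WT without WT replicate 1, and in KO without KO replicate 1 or KO replicate 2.

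Set side by side, the glutamate difference was higher in disomes than in monosomes by 0.30 in WT and by 0.44 in KO, and the libraries of the 2 kinds did not overlap in either genotype. For lysine, disome minus monosome was −0.04 in WT and −0.06 in KO, with overlap. The glutamine difference was 0.10 higher in WT disomes, with overlap, and 0.17 higher in KO disomes, without overlap. Other pairs rose as well. In WT, Arg CGA/CGG went from 0.61 in monosomes to 1.18 in disomes and Pro CCA/CCG from −0.34 to 0.35. In KO, Pro CCA/CCG went from −0.30 to 0.49. Only Lys and Ser UCA/UCG were lower in WT disomes, and only Lys, Thr, Val and Leu CUA/CUG in KO disomes. Log2 occupancies spread more in disome libraries (SD 0.426 to 0.556) than in monosome libraries (0.258 to 0.413). The kinds may have been normalized separately, and the difference between them was not tested.

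None of the 6 codons passed the test between KO and WT in monosomes. With limma over the 61 codons and adjustment over all of them, 4 codons (6.56%) passed, all of them Leu codons that were higher in KO (CUA, CUC, CUU and UUG). GAA had the lowest estimate of the 6, with KO minus WT at −0.09 on the log2 scale and a 95% interval from −0.23 to 0.05 (adjusted p = 0.812). GAG gave −0.07, from −0.29 to 0.15. The lysine estimates were 0.0041 for AAA, from −0.10 to 0.11, and −0.0081 for AAG, from −0.12 to 0.10. The glutamine intervals were wider, with CAA at 0.0031, from −0.32 to 0.33, and CAG at 0.03, from −0.27 to 0.33. The adjusted p was 0.9998 for these 5 codons. This fit had no replicate block, so its intervals include spread shared by WT and KO libraries of the same number. With the block the limma adjusted p was 0.986 for CAA and 0.823 for CAG. The WT and KO libraries overlapped for all 6 codons, and over the 61 codons 6 (9.84%) had genotypes that did not overlap.

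GAA and GAG were lower in KO in 4 of 4 pairs of libraries with the same replicate number. These 2 codons varied together over the libraries (r = 0.914). The share of all 61 codons with such a count was not taken, so the count is not read as a trait of these codons. GAU and UGC had it as well, since all their KO libraries lay below all their WT libraries. For GAA the differences were −0.06, −0.14, −0.05 and −0.10 on the log2 scale, and for GAG −0.06, −0.10, −0.04 and −0.07. With the replicate number as a block, the limma p before adjustment was 0.029 for GAA and 0.078 for GAG. After adjustment it was 0.137 for GAA and 0.265 for GAG, so neither passed. Without replicate 2 of both genotypes the estimates were −0.07 for GAA and −0.06 for GAG, and those of the other 4 codons lay between −0.0310 for CAA and −0.0046 for AAA. Without WT replicate 2 alone the estimates were −0.05 for GAA and 0.0064 for GAG. With each library centred on codons for neither Leu nor Ser, they were −0.06 and −0.04. With the replicate block 8 of 61 codons were called, of which 5 were higher and 3 lower, and none was a codon for Glu, Gln or Lys. The median change of the 6 codons was −0.0025, with 3 above 0 and 3 below, beside −0.0024 over all 61.

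No change of the 3 A minus G differences between genotypes passed the test in monosomes either. KO minus WT was −0.02 for glutamate, with a 95% interval from −0.17 to 0.13, −0.03 for glutamine, from −0.23 to 0.17, and 0.01 for lysine, from −0.10 to 0.12 (limma, adjusted p = 0.956 for each). An exact two-sided permutation test, which can give no p below 0.02857 here, gave unadjusted p = 0.6857, 0.6857 and 0.8286. Without replicate 2 of both genotypes the changes were −0.0142, −0.0261 and 0.0196. By limma 0 of the 13 pairs (0%) passed, and 2 had an unadjusted p under the threshold of 0.05. With the replicate block 2 pairs passed, both of Leu. The genotypes overlapped for all 3 pairs, and over the 13 pairs 1 (7.69%), Leu CUA/CUG, did not overlap.

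**Figure D3:**
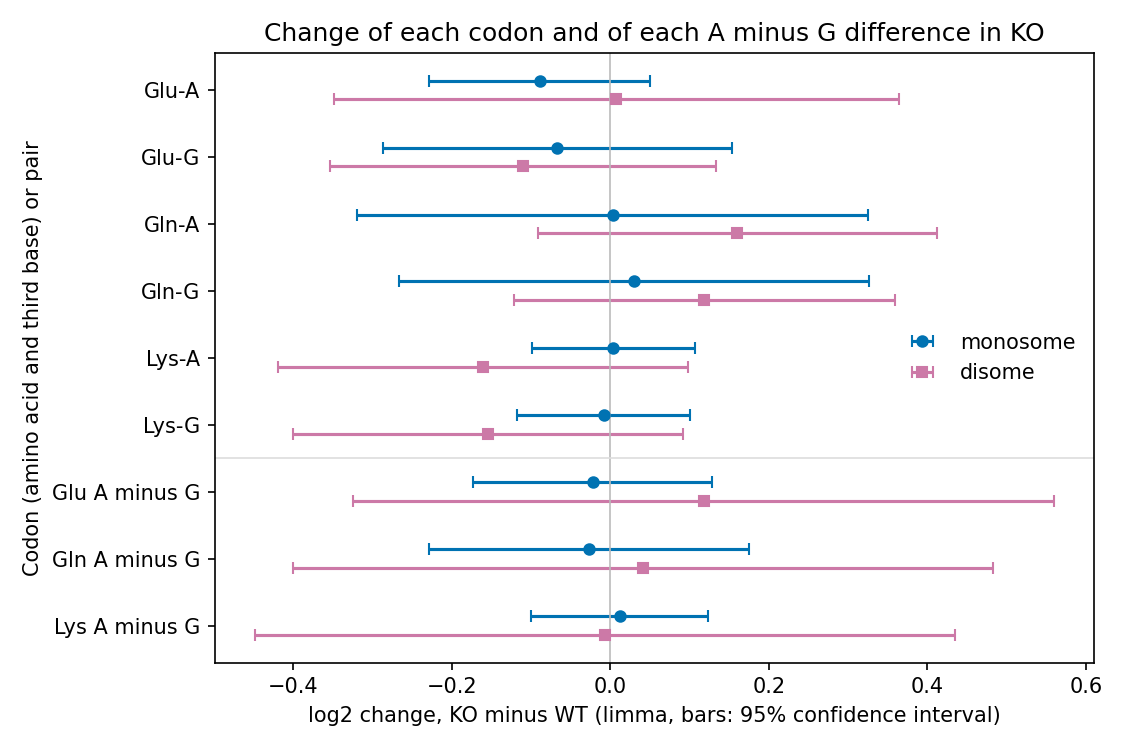
KO minus WT log2 change (x axis) of each of the 6 codons and of the 3 A minus G differences, in monosomes (blue) and disomes (pink). Bars are 95% confidence intervals from limma without a replicate block. Every interval spans 0, and the disome intervals of the A minus G differences are wider, with Glu from −0.32 to 0.56.

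In disomes no change passed for the 6 codons. The lysine and GAG libraries were lower in KO than in WT and the glutamine libraries higher, without overlap for 5 of the 6 codons, GAA being the exception. This has to be read against 32 of 61 codons (52.5%) that did not overlap with 2 libraries per genotype. The log2 estimates were −0.16 for AAA, −0.15 for AAG, 0.16 for CAA, 0.12 for CAG, −0.11 for GAG and 0.0075 for GAA. The adjusted p was 0.435 for AAA, AAG and CAA, 0.553 for CAG, 0.556 for GAG and 0.960 for GAA. Over all 61 codons limma called 0 (0%), with 10 at an unadjusted p under 0.05. The 95% intervals reached changes of −0.42 for AAA and 0.41 for CAA, so the data with 2 libraries per genotype leave room for changes up to that size.

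The disome A minus G differences between KO and WT were 0.12 for glutamate, with a 95% interval from −0.32 to 0.56, 0.04 for glutamine, from −0.40 to 0.48, and −0.0067 for lysine, from −0.45 to 0.44 (limma, adjusted p = 0.922, 0.925 and 0.9753). Both lysine codons were lower in KO and both glutamine codons higher, by similar amounts within each amino acid. Of the 13 pairs 1 (7.69%) passed, Ser UCA/UCG, and 5 (38.5%) had genotypes that did not overlap, none of them a pair of Glu, Gln or Lys.

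The replicate number accounted for most of the spread of the 6 codons within a genotype in monosomes. It held 99.5% of the within-genotype variance of log2 occupancy for GAG, 94.2% for GAA, 97.3% for CAA, 90.0% for CAG, 83.8% for AAG and 82.7% for AAA. Without replicate 2 the shares ran from 68.7% for AAG to 99.5% for GAG. Unrelated libraries of the same number would also give a sizeable share, and the other codons were not examined in this way. The glutamate codons and the glutamine codons moved in opposite directions. Over the 8 libraries Pearson's r of log2 occupancy was 0.914 between GAA and GAG, 0.858 between CAA and CAG, and 0.580 between AAA and AAG, whereas it was −0.948 between GAG and CAG and −0.912 between GAG and CAA. Without replicate 2, over 6 libraries, r was 0.894 between GAA and GAG, 0.699 between CAA and CAG, −0.03 between AAA and AAG, −0.877 between GAG and CAG and −0.710 between GAG and CAA. The likeness of the 2 lysine codons thus rested on replicate 2. Between GAG and the lysine codons r was −0.835 for AAG and −0.792 for AAA over the 8 libraries. Without replicate 2 it was −0.412 for AAG and −0.562 for AAA. These values are descriptions, since the codons share their libraries and their baseline.

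Among the other 60 codons, the one most like each member over the 8 monosome libraries was rarely its synonym. For GAA it was GAG (r = 0.914). For GAG it was the Ala codon GCG (r = 0.974), for CAA the His codon CAU (r = 0.945) and for CAG the Phe codon UUC (r = 0.950). For AAA it was the Ala codon GCA (r = 0.858) and for AAG the Gln codon CAA (r = 0.912). None of these 6 partners was the same without replicate 2.

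**Figure D4:**
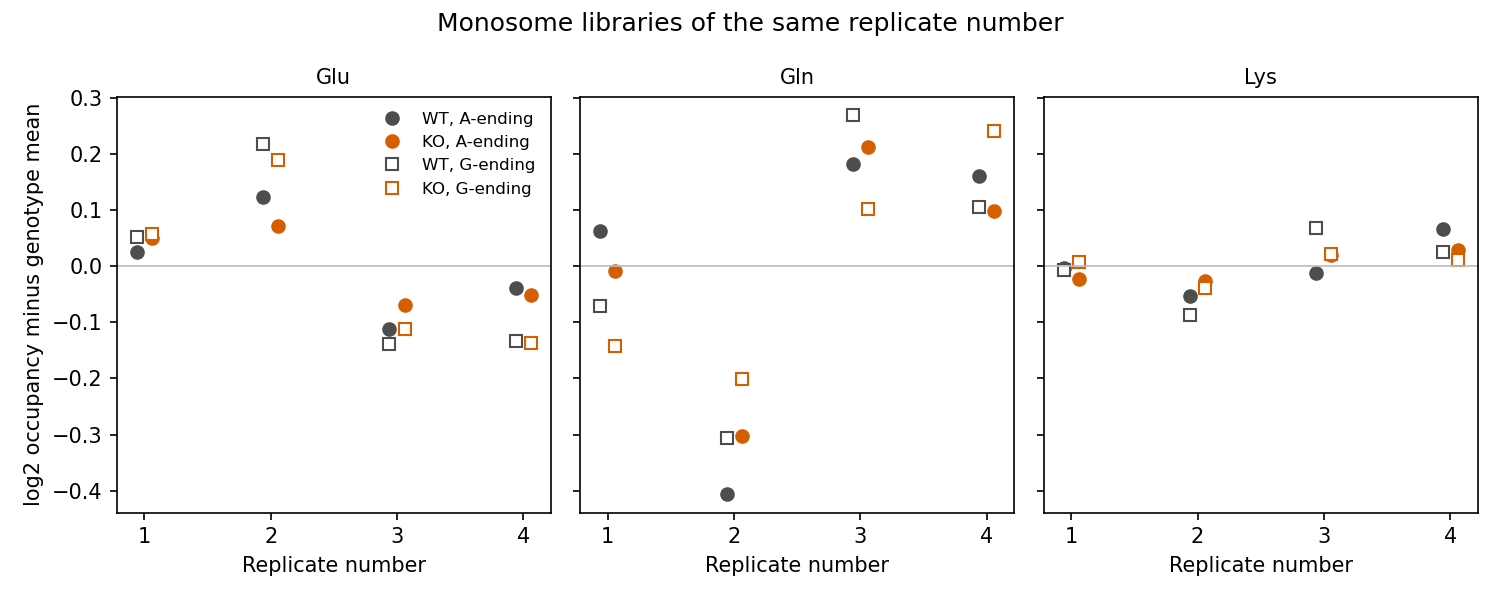
Log2 occupancy minus the genotype mean (y axis) in monosome libraries of replicate numbers 1 to 4 (x axis), for codons ending in A (filled circles) and in G (open squares), WT in grey and KO in orange. In replicate 2 the Glu codons lie above 0 and the Gln codons below 0 in both genotypes, and the Lys codons lie closer to 0.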

How the data were processed

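The authors size-selected RNase I footprints from cells lysed with cycloheximide, trimmed the reads, discarded those that STAR placed on noncoding RNA, and used STAR again to map to canonical UCSC transcripts (hg19), with unique reads kept. Custom scripts gave the deposited values, a linear ratio of codon occupancy in 1 table per footprint kind. Its denominator and any minimum on coverage are not given in the sources used here. All columns were used. The 6 codons, the comparators and the tests were chosen with earlier results of these data known. Named codons were the 6 members, the AGA/AGG and GGA/GGG comparators, the highest and lowest of the 13 pairs, the codons limma called and the codon most like each member. Other pairs, such as Leu CUA/CUG and Pro CCA/CCG, and the codons GAU and UGC were named outside this rule, as examples beside the members.

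Values were taken to log2 without a pseudocount. KO and WT were compared in each table alone with limma version 3.58.1 (R version 4.3.3, lmFit and eBayes, no replicate block), adjusted by Benjamini-Hochberg over 61 codons or 13 pairs, with a threshold of 0.05. The A minus G difference of each genotype was tested against 0 in the same fit. Only the fit of codon changes between genotypes was tried on simulated data, with libraries drawn independently and no shared replicate spread. The A minus G fits were not simulated. Groups and replicate numbers came from the labels. The deviations of same-numbered WT and KO monosome libraries correlated across codons at 0.669, 0.872, 0.534 and 0.686, so the numbers were taken to pair them, although WT replicate 3 correlated best with a KO library of another number. In disomes the correlation was 0.0212 and no pairing was assumed. Alternatives were other centrings, equal spread, a correction for G and C bases, a pseudocount of 0.1, another prior, an exact permutation test, the replicate block and leaving out each library. tRNA genes were read from hg38 at RefSeq coordinates, and the strand was set by where the anticodon falls in the loop. The gene of the sixth anticodon is not reported here.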

Additional observations from a re-analysis of the deposited data

How the results depend on the processing

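For the 6 codons and the 3 A minus G differences, no KO minus WT change passed the threshold under any alternative run, and the lowest limma adjusted p was 0.0670, for GAA with the replicate block and base composition correction. The differences against 0 of glutamate and of lysine in monosomes and of glutamate in disomes kept their direction and passed under each alternative run on them. In monosomes those of Arg CGA/CGG and Ser UCA/UCG also passed under each alternative. Estimates near 0 changed sign as follows, in log2 units, and none of them passed the threshold with either sign. In monosomes, KO minus WT became 0.0196 for AAG with centring on codons for neither Leu nor Ser, −0.0049 for CAA with libraries scaled to the same spread, and, with base composition correction, −0.0423 for AAA, −0.0132 for CAA and −0.0179 for the lysine difference, with or without the replicate block. The glutamine difference in KO became −0.0035 with equal spread and −0.0114 with base composition correction. Without replicate 2 of both genotypes, chosen after seeing the data, AAA was −0.0046, CAA −0.0310 and CAG −0.0049. In disomes, GAA became −0.0872 with median centring and −0.0101 with base composition correction, with or without the replicate block, and the change of the lysine difference became 0.0364 with equal spread. Equal spread also moved disome GAA from 0.0075 to 0.27 (adjusted p = 0.280) and the change of the glutamate difference from 0.12 to 0.31 (adjusted p = 0.225). With limma's trend option and a robust prior, the disome lysine difference passed at 0.24 in WT and 0.23 in KO, where 5 and 7 of the 13 pairs passed. Leaving out 1 monosome library gave ranges of −0.0135 to 0.0265 for AAA, −0.0373 to 0.0147 for AAG, −0.13 to 0.10 for CAA, −0.0721 to 0.12 for CAG, −0.13 to 0.0064 for GAG and, for GAA, −0.13 without WT replicate 3 to −0.05 without WT replicate 2. The changes of the differences ranged from −0.0539 to 0.0175 for glutamate, −0.0710 to 0.0210 for glutamine and −0.0143 to 0.0260 for lysine, and the glutamine difference from −0.0157 to 0.0617 in WT and −0.0427 to 0.0494 in KO. Leaving out 1 disome library gave −0.17 to 0.18 for GAA, −0.22 to −0.10 for AAA (the latter without KO replicate 2), and for the changes of the differences −0.0252 to 0.26 for glutamate, −0.0348 to 0.12 for glutamine and −0.0850 to 0.0716 for lysine. The lone library was then assumed to vary like the others. Of 61 codons in monosomes, 8 passed with the replicate block, 10 with the block and base composition correction and 2 without replicate 2 of both genotypes. With an exact permutation test 0 passed (6 unadjusted). That test gives no p below 0.02857 here, so 6 codons at that level could not pass after adjustment over 61. Of the 13 monosome pairs, 1 passed with the trend and robust prior and 2 with the replicate block, with or without base composition correction. In disomes 4 codons passed with the trend and robust prior, and from 0 to 3 when a library was left out, 3 without WT replicate 2 and 1 without KO replicate 2. Ser UCA/UCG was the 1 disome pair called, and 0 passed with equal spread or with the trend and robust prior. The exact permutation test gives no p below 0.3333 in disomes, so no disome pair could pass it. Leaving out 1 library gave 0 to 1 pairs, with 0 without WT replicate 1, WT replicate 2 or KO replicate 1. The cause of these changes was not tested. Values against 0 within a genotype have no replicate block, and depth is unknown, so the number of libraries limits the precision.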
